A study of Mus musculus with 4 samples.

Results

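The WD repeat domain (Wdr) genes expressed in the testis were examined in Rfx2-/- and control mice. They were taken as the genes whose symbol starts with Wdr and a number and whose level reached 1 FPKM in at least 2 of 4 samples. FPKM are fragment counts scaled to transcript length and library size. Of 69 such symbols, 59 met this rule, 4 lay below it, and 6 (Wdr19, Wdr34, Wdr35, Wdr60, Wdr63 and Wdr78) were kept out because their products belong to intraflagellar transport and dynein motor complexes. The 59 genes were among 12985 genes that passed the same FPKM filter, out of 22311 symbols in the files.

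RNA sequencing was done on total testicular RNA of 24-day-old male mice, with 2 Rfx2-/- (mutant) samples and 2 control samples, described by the study as biological replicates. Strain DBA is recorded in the labels for the 4 samples, and a wild type genotype for the controls. The methods of the study describe heterozygous controls and a mixed background of C57BL/6 and the 129 line of the embryonic stem cells, so the latter are called controls here. The mutant allele came from 1 embryonic stem cell clone, is a conventional knockout carried by every cell of the mouse, and replaces the exons for the DNA-binding domain with a neomycin cassette.

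A WD repeat is a short stretch of protein that often ends in tryptophan and aspartate, and several repeats fold into a round, propeller-like platform. Such platforms usually have no enzymatic activity of their own and hold the parts of larger complexes together. Members of the family therefore act in unrelated processes, from ribosome assembly and histone methylation to the axoneme, the microtubule core of cilia and of the sperm tail. At the age sampled, the seminiferous tubules of normal mice hold germ cells up to the round spermatids and the first elongating spermatids.

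The FPKM of Rfx2 was computed over the whole gene, of which the deleted exons are a part. Rfx2 stood at 36.7 and 39.8 FPKM in the mutant samples and at 123 and 89.4 FPKM in the controls, a log2 fold change of -1.43 (SE 0.19, adjusted p = 0.00617). Its mutant and control values were well apart, but the call was lost without the filter on low values, with median-ratio scaling and without control sample 1. Fold changes are given throughout on the log2(FPKM + 1) scale, which understates the change of genes at a low level, and adjusted p-values come from limma with Benjamini-Hochberg adjustment over the 12985 genes. From the deposited confidence bounds, between 17200000 and 20300000 fragments per sample were estimated over the genes. This is not the sequencing depth, for which the study gives larger read numbers. Between 12557 and 12942 genes reached 1 FPKM in each sample. The mutant samples were unlike in markers of elongating spermatids. All 9 listed markers were tested and none passed (0 lower, 0 higher), and their summed level was 1302 and 6526 FPKM in the mutant samples against 7988 and 5401 in the controls. Mutant sample 1 thus lay far below the other samples, while mutant sample 2 lay between the controls. The study reports that spermatids of mutants stop while round, and that RT-PCR showed no difference in Tnp1, Tnp2, Prm1 and Prm2. That RT-PCR was read on gels, and the age of the testes used for it is not stated. Here these genes stood at 93.4 to 240 FPKM in mutant sample 1 and 969 to 1571 FPKM in mutant sample 2. The controls held 875 to 1810 FPKM. Mutant sample 2 had a high sum although mutant spermatids are reported to stop while round. The sum is therefore not read as a count of elongating cells. Of 7 round spermatid markers 0 passed, with sums of 495 and 867 FPKM against 795 and 660. Nor did any pass among the tested markers of spermatogonia (6), spermatocytes (7), Sertoli cells (6), Leydig cells (5), peritubular and smooth muscle (4), macrophages (4) and epididymis (1). As 2.52% of all tested genes were lower and 0.308% higher, counts of 0 in such short lists are near the background. In RNA from whole testis, fewer cells of a type cannot be told apart from less RNA per cell.

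With a threshold of 0.05 on the adjusted p, 6 of the 59 Wdr genes fell in mutant testes and 0 rose. Across all tested genes 2.52% were lower and 0.308% were higher. The 6 genes were Wdr38, Wdr69, Wdr16, Wdr96, Wdr54 and Wdr65, with log2 fold changes from -2.91 to -0.82. At an unadjusted p under 0.05, 9 Wdr genes were lower and 0 higher, against 6.68% and 2.01% of all tested genes. Both mutant samples lay below both controls for 13 Wdr genes (22.03%, against 15.2% of all genes) and above both for 12 (20.3%, against 16.3%), and the groups overlapped for the other 34. The median log2 fold change of the family was 0.04, and that of all tested genes was 0.03. Hence most of the family lay near 0, with 27 of the 59 within 0.1 and 48 within 0.5 of it (81.4%, against 89.7% of all genes), and a small set lay far below.

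**Figure D1:**
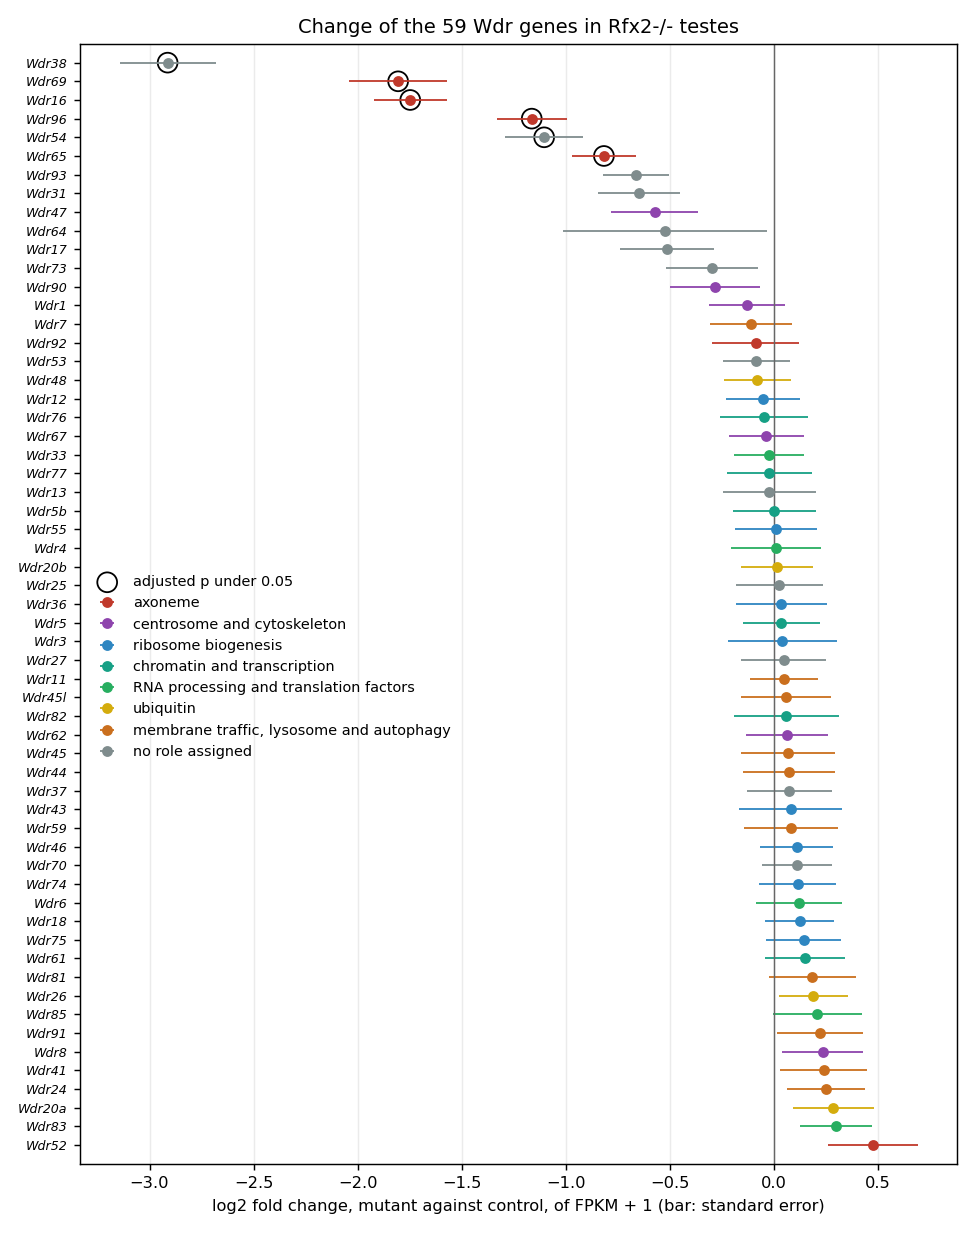
Log2 fold change (mutant against control, log2(FPKM + 1) scale) of each of the 59 Wdr genes, ranked and coloured by role, with bars of 1 standard error. The 6 genes with an adjusted p under 0.05 lie at the low end between -2.91 and -0.82, and the highest value is 0.48 (Wdr52).

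The 59 genes had control means from 0.910 to 127 FPKM, with a median of 14.1 FPKM against 9.45 FPKM over all tested genes, and 35 of them had a control mean of at least 10 FPKM. The 6 genes that fell lay between the 45.1 and the 91.4 percentile of control level among all tested genes. They sit on 6 chromosomes, and 0 of them are on chromosome 17, which carries Rfx2 and 6 of the 59 Wdr genes.

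**Figure D2:**
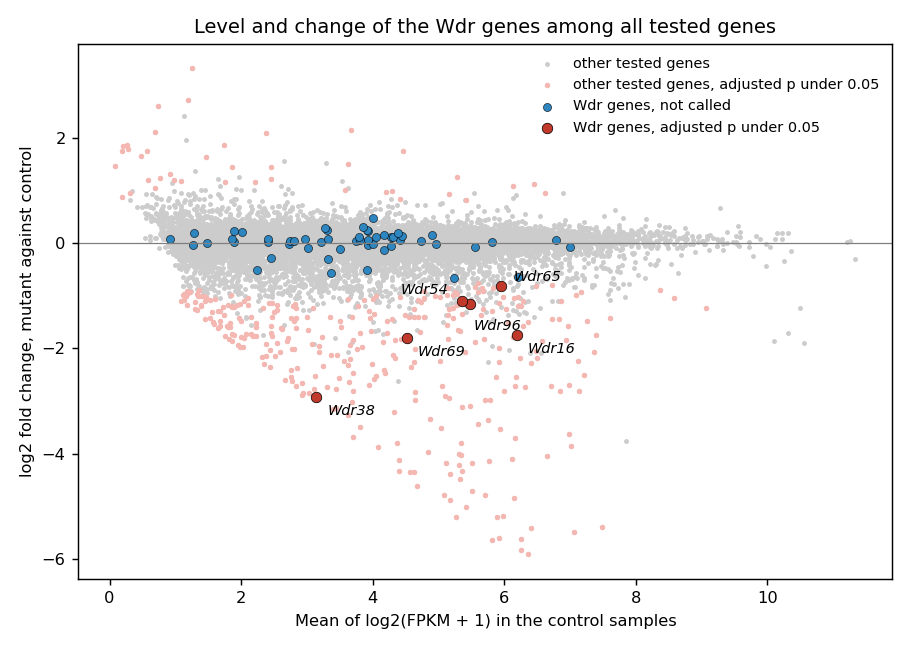
Log2 fold change against mean control level for all 12985 tested genes (small points), the Wdr genes that did not pass (blue) and the 6 that passed (red), both axes on the log2(FPKM + 1) scale. The red points are spread over the middle and upper part of the control range, and Wdr38 lies lowest at -2.91.

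Of the 6 expressed Wdr genes on the axoneme list, 4 were lower and 0 higher, against 2.52% and 0.308% of all tested genes. Their median log2 fold change was -0.99. The list was drawn up with earlier results of these data known, so the count is a description and not a test. Wdr69, now called Daw1 (mm9 chr1:83156327-83207149, plus strand), encodes a factor that helps deliver outer dynein arms to the axoneme. It measured 6.93 and 4.40 FPKM in the mutant samples and 23.4 and 20.4 FPKM in the controls (log2 fold change -1.81, SE 0.24, adjusted p = 0.0051), so that the mutant mean was 25.8% of the control mean. About 151 and 84 fragments lay behind the mutant values and 502 and 499 behind the control values. The study picked Wdr69 for follow-up from these same samples, so its place here is not independent evidence. That follow-up was real-time PCR on individual testes, where the study reports most of its chosen cilia and flagella genes as lower.

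Wdr16, now Cfap52 (mm9 chr11:67738308-67779153, minus strand), encodes a protein inside the doublet microtubules of motile cilia. Its FPKM were 22.9 and 18.8 in mutants and 77.4 and 67.2 in controls (log2 fold change -1.75, SE 0.18, adjusted p = 0.00138), and the mutant mean was 28.9% of the control mean. Between 968 and 4455 fragments lay behind each value, and the 2 groups were far apart.

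Wdr96, now Cfap43 (mm9 chr19:47812051-47993777, minus strand), is needed for normal sperm tails, and its product is paired with that of Wdr52 (Cfap44) near an inner dynein arm. Wdr96 stood at 17.5 and 20.5 FPKM in mutants and at 42.7 and 44.5 FPKM in controls (log2 fold change -1.16, SE 0.17, adjusted p = 0.0084), 43.5% of the control mean. The annotated exons of Wdr96 overlap those of Itprip on the same strand. Itprip itself was lower, at 0.242 and 0.327 FPKM in mutants against 18.8 and 6.68 FPKM in controls, and met the FPKM filter through the controls only. How reads were shared between these genes was not tested.

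Wdr65, now Cfap57 (mm9 chr4:118227156-118293382, minus strand), encodes a protein of the axoneme that takes part in inner dynein arm assembly. Its levels were close within each group, at 34.99 and 33.5 FPKM in mutants and 61.5 and 60.6 FPKM in controls (log2 fold change -0.82, SE 0.15, adjusted p = 0.0318). The mutant mean was 56.1% of the control mean, the smallest fall among the genes that passed.

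Wdr52 did not move with its partner. It measured 19.0 and 24.0 FPKM in mutants and 17.6 and 12.9 FPKM in controls, so both mutant samples lay above both controls, but the log2 fold change of 0.48 (SE 0.21) did not pass (adjusted p = 0.622). Wdr92, whose product helps dynein arms assemble in the cytoplasm, was at 7.26 and 6.05 FPKM in mutants and at 6.99 and 7.22 FPKM in controls (log2 fold change -0.09, SE 0.21). The groups overlapped for Wdr92. Wdr66, the remaining gene of the list, was not analysed here.

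The other decreases were in genes with no role on the lists. Wdr38 (mm9 chr2:38852996-38861688, plus strand) was close to 0 in mutant testes, at 0.330 and 0.0387 FPKM, against 8.76 and 7.03 FPKM in controls (log2 fold change -2.91, SE 0.23, adjusted p = 0.000353). About 10 and 1 fragments lay behind the mutant values and 253 and 215 behind the control values. Wdr38 met the FPKM rule through the controls only, whereas 57 of the Wdr genes reached 1 FPKM in each sample, so a difference between its groups followed from how it was chosen. Without it, 5 of 58 Wdr genes were lower (8.62%). Scaled to the fragments estimated over all genes, the summed mutant number was 2.53% of the control number (exact 95% interval 1.25% to 4.57%, counting error only). In none of the other Wdr genes was the mutant level so small a share of the control level. Exons of Wdr38 overlap those of Rpl35, a ribosomal protein gene on the opposite strand, which measured 78.6 and 92.2 FPKM in mutants and 72.3 and 56.9 FPKM in controls (adjusted p = 0.652). The strand setting of the libraries is not given in the sources used here, and without strand the reads of overlapping genes cannot be told apart.

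Wdr54 (mm9 chr6:83099355-83106391, minus strand) stood at 16.9 and 19.3 FPKM in mutants and at 45.1 and 35.4 FPKM in controls (log2 fold change -1.10, SE 0.19, adjusted p = 0.0197), 44.98% of the control mean. Its overlapping neighbour on the opposite strand, Rtkn, was at 0.938 and 0.975 FPKM in mutants and at 2.42 and 2.02 FPKM in controls (adjusted p = 0.156), far below the level of Wdr54.

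**Figure D3:**
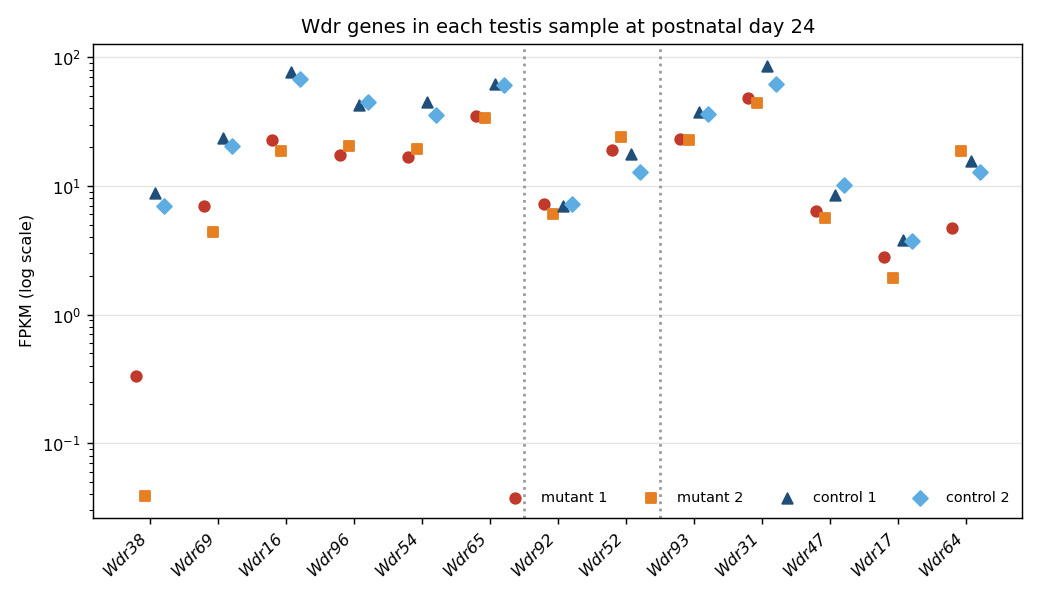
FPKM (log scale) of the 6 Wdr genes that passed, of Wdr92 and Wdr52 from the axoneme list, and of the 5 most negative Wdr genes that did not pass, with 1 point for each of the 2 mutant and 2 control samples. Mutant and control points are separate for each of the first 6 genes, whereas those of Wdr92 and of Wdr64 overlap.

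Alternative settings kept different numbers of these calls. As Wdr38 met the FPKM rule through the controls only, its passing under a setting is not support for its fall. Taking the highest entry of a symbol in place of the sum left the Wdr values unchanged, because no Wdr symbol was duplicated. Wdr38 and Wdr16 passed under all 14 alternative settings. Wdr69 and Wdr96 passed under 11, Wdr54 under 9 and Wdr65 under 7. Without control sample 1 or without control sample 2, Wdr38 and Wdr16 were the 2 genes that passed, and with median-ratio scaling 3 genes passed (Wdr38, Wdr16 and Wdr69). Without mutant sample 1 the 6 genes passed together with Wdr31, and without mutant sample 2 they passed together with Wdr64. In each fit that leaves out a sample, the lone sample of its group is assumed to vary like the other group, which alone gives the spread. Markers of multiciliated epithelium, which lines the efferent ducts that drain the testis, were also measured. Of 6 such markers 4 were tested and 1 passed (Dynlrb2, log2 fold change -1.58, adjusted p = 0.00371), and the list summed to 185 and 208 FPKM in mutants against 423 and 348 FPKM in controls. The part of such cells in the decreases was not tested. The other 3 did not pass (Tekt1, Ccno and Foxj1, adjusted p 0.107, 0.532 and 0.807), and the groups overlapped for Foxj1. The 4 tested markers all had negative changes, and 2.52% of all tested genes were called lower. Both mutant samples lay below both controls for 3 of the 4, against 15.2% of all tested genes. Most of the summed level was Tekt1 (117 and 145 FPKM in mutants, 242 and 205 in controls) and Dynlrb2 (47.8 and 35.3 FPKM against 134 and 116). The study counts Dynlrb2 among the genes of cilia and flagella that depend on Rfx2, so it does not mark this epithelium alone. Sntn, a gene of ciliary tips, was at 0 in mutant sample 1 and in both controls and at 0.112 FPKM in mutant sample 2. The 5 epididymis markers summed to 7.76 and 0.0796 FPKM in mutants and 0.285 and 3.86 FPKM in controls. Most of this was Crisp1, at 6.99 FPKM in mutant sample 1 and 3.19 FPKM in control sample 2, while Lcn8 was at 0 in the 4 samples.

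The genes next in the ranking did not pass. Wdr93 measured 23.1 and 22.6 FPKM in mutants and 37.7 and 35.9 FPKM in controls (log2 fold change -0.66, SE 0.16, adjusted p = 0.0906). Its 2 groups were well apart, and it passed with robust variance moderation (adjusted p = 0.0377). Wdr31 was at 48.1 and 44.2 FPKM in mutants and at 86.2 and 61.5 FPKM in controls (log2 fold change -0.65, SE 0.20, adjusted p = 0.224), with the controls far from each other. Wdr47, which encodes a microtubule-associated protein, was at 6.34 and 5.59 FPKM against 8.57 and 10.2 FPKM (log2 fold change -0.57, adjusted p = 0.385). For Wdr17 the values were 2.79 and 1.93 FPKM in mutants and 3.80 and 3.71 FPKM in controls (log2 fold change -0.51, adjusted p = 0.592). Each of these 4 genes was lower in both mutant samples than in either control. Wdr73 stood at 8.18 and 6.15 FPKM against 9.68 and 8.27 FPKM in controls (log2 fold change -0.30), also without overlap. Among all tested genes 15.2% had both mutant samples below both controls. As these genes were picked for their negative changes, the separation follows largely from that choice.

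Wdr64 behaved unlike the rest of the family. Mutant sample 1 held 4.70 FPKM and mutant sample 2 held 18.5 FPKM, whereas the controls held 15.6 and 12.8 FPKM (log2 fold change -0.52, SE 0.49, adjusted p = 0.9999). The value of mutant sample 1 lay below both controls and that of mutant sample 2 above both. Set against the controls alone, mutant sample 1 gave a log2 difference of -1.41 and mutant sample 2 one of 0.37, each from 1 mutant sample. Mutant sample 1 is also the one with the lowest summed level of elongating and of round spermatid markers. A link of Wdr64 with these levels was not tested.

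Sequences upstream of these genes were compared for the X-box, the DNA element to which RFX proteins bind, since Rfx2 is the gene disrupted in the mutants. The element is an imperfect inverted repeat with 12 positions in its arms and up to 3 bases between them. In the arms some positions take either of a pair of bases, and another takes any base. It was searched on both strands of the RefSeq promoter windows of GRCm38.p6 (250 bases before to 50 after each start), in which 48 of the 59 Wdr genes were found. An X-box was present for 5 of the 48 (10.4%), against 1.75% of all 27025 genes in the promoter table and 2.51% of the tested genes with a promoter. The 5 elements are shown because they were found beside genes with unlike changes. They read 5′ to 3′ along the motif, on the strand opposite to the gene, in capitals because the whole run is the X-box, with positions counted from the RefSeq start.

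Wdr54, from -62 to -50: GTTACCAAGCAAC
Wdr93, from 5 to 18 at start 1: GTCGCCTTAGTAAC
Wdr47, from -90 to -77 at start 2: GTGACCATGGCAAC
Wdr17, from -245 to -233 at start 2: GTTACCTAGCAAC
Wdr52, from -27 to -14: GTTGCCATAGCAAC

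Of these 5 genes, Wdr54 was lower in mutants, Wdr93, Wdr47 and Wdr17 had values of -0.66, -0.57 and -0.51 without passing, and Wdr52 had the highest value of the family at 0.48. An X-box was found for 1 of the 6 genes that fell and for 4 of the 42 matched genes that did not pass (9.52%), and for 33 of 258 genes (12.8%) among all tested genes that were lower. The promoter windows of Wdr54 and Wdr52 show the element, in capitals and as read on the gene's strand, shortly before the start in a gene that fell and in one that did not. That of Wdr93 at start 1 shows it just after the start, while at start 2 the same element spans the start (from -10 to 4). The window of Wdr38, the gene with the largest fall, holds none.

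Wdr54, chr6:83156330-83156629, minus strand: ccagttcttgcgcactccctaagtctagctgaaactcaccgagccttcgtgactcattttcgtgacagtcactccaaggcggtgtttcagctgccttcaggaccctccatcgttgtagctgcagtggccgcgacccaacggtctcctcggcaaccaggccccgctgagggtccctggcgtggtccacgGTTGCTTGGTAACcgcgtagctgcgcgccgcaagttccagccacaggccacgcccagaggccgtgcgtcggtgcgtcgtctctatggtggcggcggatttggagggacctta
Wdr52 (Cfap44), chr16:44394549-44394848, plus strand: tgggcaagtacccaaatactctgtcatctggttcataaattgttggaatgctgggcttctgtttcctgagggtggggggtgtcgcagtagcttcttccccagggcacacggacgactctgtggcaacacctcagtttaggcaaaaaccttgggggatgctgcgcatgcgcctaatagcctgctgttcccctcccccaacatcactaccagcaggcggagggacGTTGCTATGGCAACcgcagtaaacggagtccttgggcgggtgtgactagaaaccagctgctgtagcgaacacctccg
Wdr93, chr7:79742899-79743198, plus strand: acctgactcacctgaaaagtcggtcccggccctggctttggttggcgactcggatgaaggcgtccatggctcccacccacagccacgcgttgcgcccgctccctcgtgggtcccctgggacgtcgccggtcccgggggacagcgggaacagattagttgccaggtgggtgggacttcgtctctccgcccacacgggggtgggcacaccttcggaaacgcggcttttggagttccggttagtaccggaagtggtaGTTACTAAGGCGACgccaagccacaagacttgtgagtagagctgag
Wdr38, chr2:38998059-38998358, plus strand: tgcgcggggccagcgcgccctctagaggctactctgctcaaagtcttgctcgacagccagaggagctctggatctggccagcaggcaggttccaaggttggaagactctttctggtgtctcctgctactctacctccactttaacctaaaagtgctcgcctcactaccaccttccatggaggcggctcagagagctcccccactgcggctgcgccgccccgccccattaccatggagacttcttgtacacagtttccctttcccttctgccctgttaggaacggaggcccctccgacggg

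Allowing 1 mismatch, 15 of the 48 windows (31.3%) held such an element, against 12.7% of all promoters and 15.3% of the tested genes with a promoter. It was found for 3 of the 6 Wdr genes that fell, and for 119 of 258 (46.1%) of all tested genes that were lower. Among the genes that fell, Wdr16 and Wdr69 then gained an element each, shown with the mismatched base in capitals, while Wdr38, Wdr65 and Wdr96 still had none in this window.

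Wdr16 (Cfap52), from -16 to -3: gtcgTcatggtaac
Wdr69 (Daw1), from 2 to 15 at start 1: gtagccatggAaac

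A match of this kind is a description of letters, and binding was not measured in these data.

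Of the 40 Wdr genes with roles outside the axoneme, 0 were lower and 0 higher, against 2.52% and 0.308% of all tested genes, shares at which a count of 0 among 40 is near the background. They had a median log2 fold change of 0.06, values from -0.57 to 0.30, and standard errors from 0.16 (Wdr48) to 0.26 (Wdr3). At an unadjusted p under 0.05, 1 of the 40 was lower (Wdr47) and 0 were higher, against 6.68% and 2.01% of all tested genes.

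The centrosome and cytoskeleton list had 6 genes, with a median log2 fold change of -0.08. Wdr62, a spindle pole protein known for its loss in microcephaly, was among the most abundant of the family at 122 and 107 FPKM in mutants and 127 and 94.3 FPKM in controls (log2 fold change 0.06). Wdr1, which helps cofilin take actin filaments apart, was at 14.1 and 16.9 FPKM against 16.7 and 17.4 FPKM in controls (log2 fold change -0.13). Wdr8 stood at 17.8 and 16.3 FPKM in mutants and at 12.7 and 16.1 FPKM in controls (log2 fold change 0.23). Its mutant values lay above both controls by little.

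On the ubiquitin list, with 4 genes and a median of 0.10, Wdr48 had the highest level of the whole family. Its product activates the deubiquitinases Usp1, Usp12 and Usp46, and it measured 121 and 119 FPKM in mutants and 132 and 121 FPKM in controls (log2 fold change -0.08). Wdr20b was at 59.1 and 52.4 FPKM against 60.6 and 49.97 FPKM (log2 fold change 0.02), and its close relative Wdr20a at 10.4 and 11.2 FPKM against 8.17 and 9.22 FPKM (log2 fold change 0.29). As Wdr20a and Wdr20b share sequence, how their reads were divided is uncertain.

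Ribosome biogenesis genes kept to a narrow range. The 9 genes had log2 fold changes from -0.05 to 0.14, with a median of 0.08. Wdr18 stood at 23.2 and 22.3 FPKM in mutants and 21.6 and 19.96 FPKM in controls (log2 fold change 0.12), and Wdr74, a factor of large subunit maturation, at 23.0 and 18.1 FPKM against 18.8 and 18.7 FPKM (log2 fold change 0.12). Their mutant and control levels differed by less than the standard error of 0.17 and 0.18.

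The 6 chromatin and transcription genes had values from -0.05 to 0.15 around a median of 0.02, and the groups overlapped for each of them. Wdr5, a core subunit of histone H3 methyltransferase complexes, was at 28.0 and 24.6 FPKM in mutants and 22.7 and 28.8 FPKM in controls (log2 fold change 0.04). Its intronless relative Wdr5b shares sequence with it, which makes the division of their reads uncertain. Wdr61, a subunit of the Paf1 and Ski complexes, was at 36.9 and 27.8 FPKM against 27.01 and 30.8 FPKM (log2 fold change 0.15).

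Among 5 genes of RNA processing and translation factors, with a median of 0.12, Wdr33 encodes the subunit that reads the polyadenylation signal. It measured 32.1 and 27.6 FPKM in mutants and 29.2 and 31.5 FPKM in controls (log2 fold change -0.02). Wdr83 had the highest value of the 40 genes, with 16.5 and 16.9 FPKM in mutants above 13.6 and 13.3 FPKM in controls (log2 fold change 0.30, SE 0.17, adjusted p = 0.914). That difference did not pass, although the samples of each group were close together.

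The 10 genes of membrane traffic, lysosome and autophagy ranged from -0.11 to 0.25 with a median of 0.08. Wdr11 measured 21.5 and 20.7 FPKM in mutants and 20.2 and 20.7 FPKM in controls (log2 fold change 0.05). Wdr24, a subunit of the GATOR2 complex that signals amino acids to mTORC1, was at 17.3 and 16.6 FPKM against 15.6 and 12.7 FPKM (log2 fold change 0.25). Wdr41, a partner of C9orf72 and Smcr8, was at 11.9 and 9.69 FPKM against 8.14 and 9.78 FPKM (log2 fold change 0.24), and Wdr91, an endosome protein, at 3.44 and 3.21 FPKM against 2.60 and 2.83 FPKM (log2 fold change 0.22). None of these 4 genes passed (adjusted p from limma 0.9999 for each).

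Genes of the complexes that Wdr proteins belong to were measured for comparison. Of 12 tested genes of dynein preassembly and the axoneme 1 was lower and 0 were higher, against 2.52% and 0.308% of all tested genes. It was Dnaic2, an intermediate chain of the outer dynein arm that Wdr69 helps to deliver. Its FPKM were 0.286 and 0.160 in mutants and 43.1 and 28.4 in controls (log2 fold change -4.88, adjusted p = 4.30e-05). Like Wdr38, Dnaic2 met the FPKM filter through the controls only, so a difference between its groups followed from that filter. The chain paired with it, Dnaic1, stood at 72.1 and 84.98 FPKM in mutants and at 51.4 and 44.1 FPKM in controls (log2 fold change 0.71, adjusted p = 0.0998), above both controls without passing. The study counts Dyx1c1 among the cilia and flagella genes, most of them lower, that changed in its own test on pooled reads. Here the preassembly factors Dyx1c1, Lrrc6 and Zmynd10 had log2 fold changes of -0.84, -0.71 and -0.90 (adjusted p 0.0523, 0.0726 and 0.0772) and did not pass. Nor did Pih1d2 (-0.73), Ruvbl1 (-0.23), Rpap3 (-0.18), Spag1 (-0.16), Ruvbl2 (0.05) and Pih1d1 (0.31), nor Spag16 of the central apparatus (-0.28). Of the partner genes of ribosome biogenesis (12), chromatin (12), RNA processing (6) and ubiquitin (9), 0 were lower and 0 higher. Beside the shares of all tested genes, such counts of 0 are near the background. Usp12, which Wdr48 activates, had 6.22 and 4.81 FPKM in mutants against 9.82 and 9.96 FPKM in controls and did not pass (log2 fold change -0.75, adjusted p = 0.176).

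In the 9 partner genes of membrane traffic 1 was lower and 0 were higher, against 2.52% and 0.308% of all tested genes. Rogdi, which works with Wdr7 and Dmxl proteins on the vacuolar proton pump, measured 26.0 and 26.9 FPKM in mutants and 56.4 and 44.9 FPKM in controls (log2 fold change -0.90, adjusted p = 0.0370). Wdr7 itself lay near 0, with a log2 fold change of -0.11.

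Of the 6 Wdr genes kept out by the rule, Wdr78, a dynein intermediate chain, was lower at 10.9 and 11.5 FPKM against 25.8 and 25.3 FPKM in controls (log2 fold change -1.13, SE 0.17, adjusted p = 0.0110), and the other 5 did not pass. Wdr63, also a dynein intermediate chain, had 52.3 and 57.3 FPKM in mutants and 42.7 and 44.5 FPKM in controls (log2 fold change 0.32, adjusted p = 0.722), and the intraflagellar transport and dynein-2 genes Wdr60, Wdr35, Wdr34 and Wdr19 had log2 fold changes of -0.48, -0.45, -0.09 and -0.05.

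Between samples of the same genotype, the standard deviation of the log2 difference between the mutant samples was 0.31 over the Wdr genes and 0.47 over all tested genes, and that between the controls was 0.25 and 0.35. Levels were higher in mutant sample 1 than in mutant sample 2 for 46 of the 59 Wdr genes (77.97%, against 68.1% of all genes). In 27 of the 59 (45.8%, against 46.9% of all genes) mutant sample 1 exceeded mutant sample 2 while control sample 2 exceeded control sample 1, and 0 of the 6 genes that fell showed that pattern. Wdr64 was the 1 Wdr gene whose mutant samples differed by more than 1 on the log2 scale (-1.78), against 4.78% of all tested genes.

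**Figure D4:**
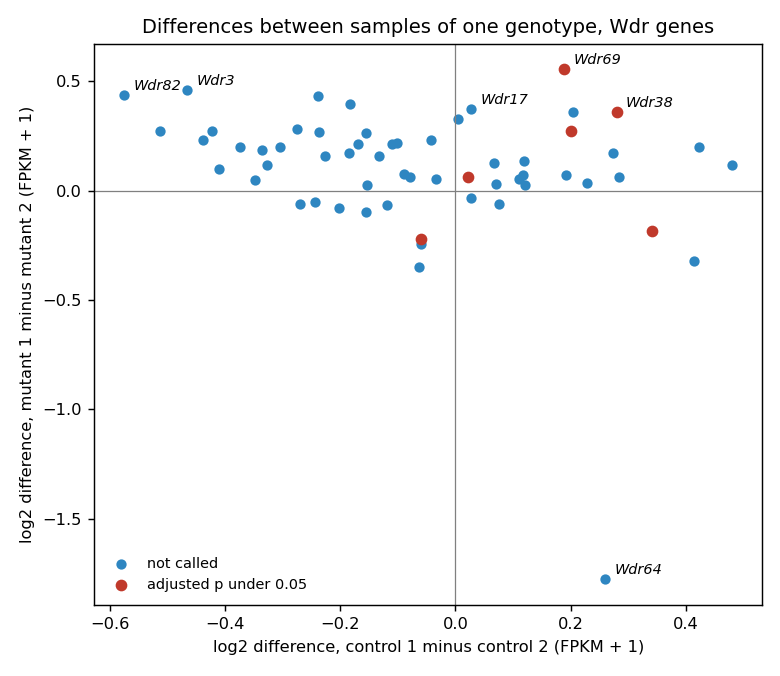
Log2 difference between the mutant samples (sample 1 minus sample 2) against that between the controls, on the log2(FPKM + 1) scale, for the 59 Wdr genes with the 6 that fell in red. Wdr64 stands apart at -1.78 on the vertical (mutant) axis, and the other points gather near 0.

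At the threshold of the rule, the genes just inside were Wdr44 (1.16 and 0.836 FPKM in mutants, 0.622 and 1.20 in controls) and Wdr76 (1.38 and 1.30 FPKM in mutants, 1.14 and 1.73 in controls). Just outside lay Wdr89, at 0.572 and 0.326 FPKM in mutants and 0.194 and 0.639 FPKM in controls, and Wdr95, at 0.0728 and 0.171 FPKM in mutants and 0.762 and 0.403 FPKM in controls. About 5 and 10 fragments lay behind the mutant values of Wdr95 and 50 and 28 behind the control values. Also below the rule were Wdr86, between 0.166 and 0.307 FPKM, and Wdr72, which did not exceed 0.0132 FPKM in any sample.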

How the data were processed

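Testicular RNA of 4 samples was sequenced, and the authors aligned reads with TopHat2 (version 2.0.6) to mouse genome build mm9 and computed gene FPKM with confidence bounds by Cuffdiff, as deposited. FPKM are normalized for length and depth, so the count models were not usable. Entries that shared a symbol were summed, genes at 1 FPKM or more in at least 2 samples were kept, and log2(FPKM + 1) was fitted with limma 3.58.1 in R 4.3.3 (mutant against control, empirical Bayes moderation with a mean-variance trend, two-sided, Benjamini-Hochberg adjustment over 12985 genes, called at 0.05). Fragment numbers were estimated from the deposited bounds and cover counting error only. Tables were handled with pandas 2.3.3 and numpy 2.4.6 in Python 3.11.15.

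The Wdr genes, role lists, partner genes and marker lists were chosen with earlier results of these data known. Named genes were those that passed, the axoneme list, the 6 most negative and the 6 most positive of the others, the 3 most abundant, up to 2 abundant examples of each role, the 2 nearest on either side of the FPKM rule, the 6 kept out, and Rfx2; single genes beyond these were named after their values were seen. Gene overlaps were read from GENCODE M1 on the authors' build. Alternatives were another pseudocount (0.1), no filter, a filter at 5 FPKM, median-ratio and quantile scaling, other moderation, the replicate number as a block, and leaving out each sample. Same-numbered samples did not deviate together (correlation -0.15), so the numbers were not treated as pairs.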

Additional observations from a re-analysis of the deposited data

How the results depend on the processing

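The count of 6 lower Wdr genes became 3 without the low-value filter and 3 with median-ratio scaling, and ranged from 2 (without either control) to 7 (without either mutant sample) when single samples were left out. The count of higher Wdr genes was 0 under every setting run, against 13 to 162 higher genes overall when single samples were left out. Over all tested genes, 327 were lower and 40 higher. Without the filter these were 199 and 17, with a filter at 5 FPKM 202 and 17, with median-ratio scaling 206 and 16, with robust moderation 427 and 67, and with single samples left out 167 to 948 lower, in fits where 1 group holds 1 sample and the other alone gives the spread. Without mutant sample 1 the lower share of calls was 72.8% in place of 89.1%. Rfx2 no longer passed without the filter (-1.43, adjusted p = 0.0607) or with median-ratio scaling (-1.45, adjusted p = 0.0829), and its log2 fold change ranged from -1.66 to -1.20 with single samples left out. Without control sample 1 its adjusted p was 0.0628. The median of the Wdr genes, 0.04, was -0.07 without control sample 1. Medians of the role lists outside the axoneme stayed between -0.17 and 0.28, and that of the axoneme list between -1.03 and -0.94, under other scalings and with single samples left out. On the authors' build, an alternative chosen after seeing the data, 6 of the 59 windows held an X-box (10.2%, against 3.18% of tested genes), with Wdr13 and Wdr7 among them and Wdr47 not. Within 1000 bases either side of the start the shares were nearer, at 11.9% and 7.38%. The cause of these shifts was not tested.

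With the replicate number as a block, 525 genes were lower and 70 higher, and 6 Wdr genes passed, the same genes as without it. With the numbers crossed, an alternative chosen after seeing the data, 266 genes were lower and 28 higher, with 5 Wdr genes lower. With 2 samples a group, the smallest change of a Wdr gene that passed was -0.82 (Wdr65), and smaller changes can be missed at this spread.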
